A study of Mus musculus with 14 samples.

Results

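The cytosolic ribosomal protein genes were followed in RNA-seq of regulatory T cells (Tregs), the CD4+ FOXP3+ lymphocytes that restrain immune responses. Members were the protein-coding genes whose symbol is that of a ribosomal protein (Rpl or Rps with a number, Rplp0 to Rplp2, and Rpsa), whatever their values, and 83 of the 48363 genes with values met this rule. They comprised 43 proteins of the large (60S) subunit, 31 of the small (40S) subunit, the 3 stalk proteins and 6 paralogs that carry the name of a parent gene with a trailing l. Of the 14 libraries, all from untreated cells, 5 were miR-15/16 cKO and 4 WT, and the other 5 were sorted bins, 3 CD25hi and 2 CD25lo. The cKO mice carried floxed miR-15/16 alleles (miR-15/16 fl/fl) with Foxp3-Cre, whose YFP-Cre fusion is expressed from the Foxp3 locus and so deletes in cells that express FOXP3. WT mice were miR-15/16 wt/wt with the same Foxp3-Cre, so Cre was present in every group, and CD25hi and CD25lo cells were bins of WT Tregs sorted on the surface level of the IL-2 receptor alpha chain. Cells were sorted as YFP+ from pooled spleen and inguinal, axillary and brachial lymph nodes, and the age of the mice used for these libraries was not stated.

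Each ribosome is built from RNA and 1 copy of most ribosomal proteins, so the genes for these proteins are transcribed at high levels in every cell. Their mRNAs begin with a run of pyrimidines, the 5′ terminal oligopyrimidine (TOP) motif, through which mTORC1 and LARP1 control their translation and stability. Ribosome production rises when lymphocytes grow and divide, and RNA levels of these genes do not by themselves give the rate of protein synthesis.

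Libraries held 30055573 to 35226685 reads in genes, and values are reads divided by a size factor (normalized counts). Between 13723 and 18200 genes had a read, with the fewest in CD25hi replicate 2 and WT replicate 2. All 7 T cell and Treg markers examined, Foxp3 and Ctla4 among them, were detected in every group, with a summed level of 171816 to 196962 in WT and 179496 to 194225 in cKO libraries. Within these sums Il2ra was lower in cKO (13359 to 17141) than in WT libraries (24206 to 29151). Ikzf2 was higher, at 32844.5 to 37116 in cKO and 27600 to 32005 in WT libraries. The other markers of this list overlapped between the genotypes. Of the markers of other cells, the 5 B cell genes summed to 564 to 867 in cKO and 226 to 592 in WT libraries, and the 12 myeloid genes to 2162 to 6287 and 2299 to 8912. None of the 12 was apart between the genotypes, and Csf1r varied most within each. It was at 127.5 to 474.9 in cKO replicates 1, 2, 3 and 5 and 2126 in replicate 4. In WT replicates 1 to 3 it was at 1473 to 3159, and in WT replicate 4 at 553. The part of myeloid RNA in the results was not tested. The 4 genes of the deleted miRNAs had no read in any library, WT included, so they did not check the labels. Xist, the transcript of the inactive X chromosome, was above 1000 normalized counts in all 5 cKO libraries and WT replicate 3 and at most 64.6 in the others. The methods of the study describe sex-matched mice, and in these libraries sex and genotype were nearly confounded.

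Ribosomal protein genes took a smaller share of the normalized counts in every cKO library than in any WT library, and in both CD25lo libraries than in any CD25hi library. The share is a description and was not tested. The share was 1.33, 1.29, 1.30, 1.45 and 1.38% in the cKO libraries and 1.54, 1.58, 1.64 and 1.58% in the WT libraries. It was 1.66, 1.72 and 1.68% in CD25hi and 1.48 and 1.5004% in CD25lo libraries. No library of one of these 4 groups lay within the range of another. The mean was 1.35% ± 0.0646 in the cKO group (SD, n = 5), while the WT group had 1.58% ± 0.0408 (SD, n = 4). Those of the sorted bins were 1.69% ± 0.0312 (SD, n = 3) for CD25hi and 1.49% ± 0.0117 (SD, n = 2) for CD25lo. The mean share in cKO Tregs was thus 14.6% below WT, and that in CD25lo Tregs 11.6% below CD25hi. WT replicate 3, the WT library with a high Xist level, held the highest share of the WT libraries. Another set of abundant transcripts moved with the share: the mitochondrially encoded genes took 1.93 to 2.37% of counts in cKO and 2.40 to 2.97% in WT libraries, and 2.30 to 2.31% in CD25lo and 2.56 to 2.71% in CD25hi. With them left out of the total, the difference in the share of the ribosomal protein genes, cKO minus WT, was -0.245 percentage points, and -0.231 with them. Counts are relative to the library and come from bulk samples, so fewer cells rich in these mRNAs, less of them per cell and more of other RNA cannot be told apart.

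**Figure D1:**
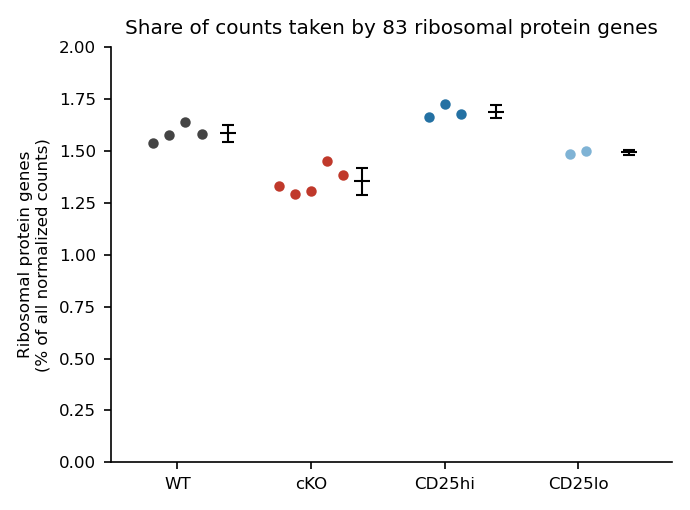
Share of all normalized counts taken by the 83 ribosomal protein genes (y axis, percent) in each library (points), by group (x axis). Bars give mean ± SD. The 5 cKO libraries sit between 1.29 and 1.45%, below the lowest WT library at 1.54%, and the 2 CD25lo libraries lie below all 3 CD25hi libraries.

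To ask which genes carried the lower share in cKO Tregs, each gene was tested with limma-trend on log2(normalized count + 1), and a gene was called at an adjusted p below 0.05 (Benjamini-Hochberg over 16241 genes). Of the 83 members 81 passed the filter of 10 normalized counts in 2 libraries. In cKO against WT Tregs, 18 members were lower and 0 higher, while 1.48% of all genes tested were lower and 2.04% higher. At an unadjusted p below 0.05, 34 members were lower and 1 was higher, a count not taken over all genes. By DESeq2, 24 members were lower and 1 higher, against 512 and 537 of 23665 genes. By edgeR, 17 were lower and 0 higher, against 227 and 294 of 16241 genes. Libraries of the 2 genotypes did not overlap for 27 members, 26 with cKO lower and 1 with cKO higher, against 3.62% and 4.92% of all genes. The median log2 fold change was -0.27 over the members, 0.05 over all genes tested and -0.01 over the 5830 genes with a mean of at least 1000 normalized counts. Of those abundant genes 3.48% were called lower, compared with 18 of the 50 members at that level. The fold changes were small and alike, from -0.27 to -0.53 in the 18 members called, or 16.8 to 30.8% less.

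**Figure D2:**
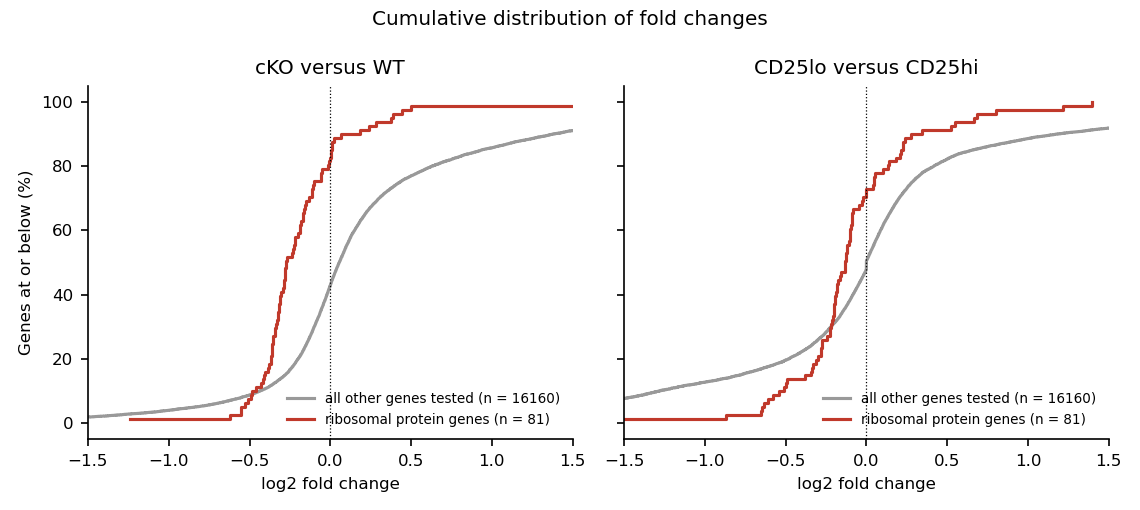
Cumulative distribution of log2 fold changes (x axis, cut at 1.5 on each side) of the 81 ribosomal protein genes tested (red) and of all other genes (grey), with the percent of genes at or below each value on the y axis. In cKO versus WT the red curve lies to the left over most of its range, with a median of -0.27 against 0.05 over all genes, and 66 of 81 members are below 0. In CD25lo versus CD25hi its median is -0.13 against 0.00, and 59 of 81 are below 0.

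Xist moved with genotype, so sex and genotype cannot be fully told apart in the counts above. With Xist status as a term in the fit, none of the 18 members passed the threshold (limma, adjusted p from 0.0904 to 0.625). Over all 16241 genes this fit called 9 lower and 13 higher, where the fit without the term called 240 and 332. All cKO libraries have high Xist, so this fit compares them with WT replicate 3 alone, the WT library with the highest share. The median log2 fold change of the 18 was -0.41 in that fit and -0.36 without the term, and standard errors were 0.0909 to 0.233 with the term and 0.0545 to 0.139 without it. Rpl7 and Rps4x had smaller differences with the term, of -0.40 and -0.34. The part of sex in the result was not tested beyond this. Leaving out WT replicate 3 gave 11 members lower and 0 higher, against 168 and 271 of 16003 genes. A list of immediate early genes, induced within minutes of stimulation, averaged 12.35 to 13.66 on the log2 scale in cKO and 11.88 to 13.70 in WT libraries. WT replicate 4 alone was at 11.88, within the range of the sorted bins (11.67 to 12.22), and the other WT libraries were at 13.44 to 13.70. Its Ctla4 level of 13255.5 also lay within that of the bins (8536 to 16236), below the other WT libraries (32969 to 36410). What set it apart was not tested. With the immediate early average as a term 21 members were lower and 0 higher, against 374 and 500 of 16241 genes.

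The sequence at the start of these genes was read to see what they share. RefSeq starts (GRCm38.p6) were matched by symbol for 63 of the 83 members, and the 50 bases on each side were searched for a C followed by at least 7 C or T, a run like that of a TOP motif. Of the 63 members 52 held such a run (82.5%), against 32.0% of the 27025 genes with a start. On the opposite strand 20.6% of the members and 34.4% of the genes held one. Of the members lower in cKO Tregs 10 of 13 held one, and of those tested and not called 41 of 48. The windows below show it for Rpl4, Rps15, Rpl34 and Rps26, called in cKO Tregs, and for Rplp2 and Rps6, which were not, with the longest run in capitals. The first base of the run was base 27 of the RefSeq transcript for Rpl4, 26 for Rps15 and 5 for Rps26. It lay 17 bases before 1 RefSeq start for Rpl34, 4 before the start for Rplp2 and 1 before it for Rps6. At another RefSeq start of Rpl34 the longest run had 8 letters and began 13 bases before it. The runs are therefore near these annotated starts, and the data do not show where the mRNAs begin.
Rpl4 (chr9:64173405-64173434, plus strand): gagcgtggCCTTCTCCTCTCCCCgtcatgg
Rps15 (chr10:80292448-80292477, plus strand): agcccgtaCTTCCTTTTCCgagtaaccgcc
Rpl34 (chr3:130730333-130730362, minus strand): ctcacccgCCCCTTCCTTTTCCTCTTCCgg
Rps26 (chr10:128626481-128626510, minus strand): cgccggatCCTCTTTCgagtcttggctcca
Rplp2 (chr7:141447639-141447668, plus strand): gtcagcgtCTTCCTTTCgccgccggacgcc
Rps6 (chr4:86857347-86857376, minus strand): aagtcgggCCTCTTTTTCgtgacgcctccc

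The deleted miRNAs share 1 seed, the bases that pair with targets. Their mature sequences (RefSeq, GRCm38.p6) follow with the seed, bases 2 to 8, in capitals, and miR-16-5p is made from both loci.
miR-15a-5p (chr14:61632075-61632096, minus strand): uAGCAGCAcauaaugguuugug
miR-15b-5p (chr3:69009775-69009796, plus strand): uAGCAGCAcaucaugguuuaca
miR-16-5p (chr14:61631936-61631957, minus strand, and chr3:69009918-69009939, plus strand): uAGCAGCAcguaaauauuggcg

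A match of 7 bases to this seed (TGCTGCT, or GCTGCTA) was looked for on the sense strand of the 3′ UTR of the transcript with the longest coding sequence (GENCODE M21, GRCm38). It was present in 6 of the 79 members tested that have a 3′ UTR (7.59%), and in 24.8% of the genes tested. The 3′ UTRs of the members were short, with a median of 95 bases against 937. Of the 18 members lower in cKO Tregs, Rps7 alone held one. Rpl22 held 3, the most of the members, and had a log2 fold change of -0.06 between genotypes (limma adjusted p = 0.864). The sites are shown with the match in capitals.
Rps7 (chr12:28630927-28630953, minus strand): gggggcattcTGCTGCTgtgaaacaga
Rpl22 (chr4:152332545-152332571, plus strand): ttaactgggcTGCTGCTcctttgtata

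Of the large subunit, 6 of 43 members were lower in cKO Tregs, and Rpl4 held the most counts of them. Rpl4 (ENSMUSG00000032399, chromosome 9, 64173375 to 64178666, GRCm38) encodes a protein that lines the exit tunnel for the nascent chain. It had 46185, 49303, 46030, 53019 and 52063 normalized counts in the cKO libraries and 60944, 64872, 65429 and 61753 in the WT libraries. Every cKO library was below every WT library, with a log2 fold change of -0.36 ± 0.0586 (SE, limma adjusted p = 0.0017). Rpl7 (chromosome 1, 16101295 to 16104662) had 8164, 7459.7, 6965, 8071 and 8467 normalized counts in cKO and 10985, 10947, 10321 and 9883 in WT libraries. It did not overlap either and had the smallest adjusted p of the members (log2 fold change -0.43 ± 0.0652, limma adjusted p = 0.001). Rpl8, a protein close to the catalytic centre, had 34471 ± 1950 normalized counts in cKO (SD, n = 5) and 41757 ± 1339 in WT Tregs (SD, n = 4). Its difference was among the smallest called, at -0.28 ± 0.0545 (SE, limma adjusted p = 0.0067).

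Rpl32 and Rpl34 were lower as well. Rpl32 had 14649 ± 1309.6 normalized counts in cKO and 18754 ± 835 in WT libraries (SD, n = 5 and n = 4), with a log2 fold change of -0.36 (limma adjusted p = 0.0047). Rpl34 fell from 3635 ± 267 to 2783 ± 191, a log2 fold change of -0.39 (limma adjusted p = 0.0063). Neither overlapped between genotypes. Rpl35, which lies beside the tunnel exit, had the largest fold change of the 18, -0.53 ± 0.139 (limma adjusted p = 0.0393). Only 4.91% of the 50-base windows of its transcript occur in no other annotated gene, so its reads may be shared with copies.

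Of the small subunit, 11 of 31 members were lower. Rps15 (chromosome 10, 80292453 to 80294114), a protein of the 40S head, had 16589, 16051, 15915, 17659 and 18306 normalized counts in cKO and 22051, 21348, 22799.5 and 20787 in WT libraries. All cKO libraries were below all WT libraries (log2 fold change -0.36 ± 0.0553, limma adjusted p = 0.001). Rps3 (chromosome 7, 99477896 to 99483738), which sits where mRNA enters the ribosome, had 32086, 29398, 30246, 35819 and 33823 normalized counts in cKO and 39514, 40995, 42994 and 41499 in WT libraries. Here too the genotypes were apart, with a log2 fold change of -0.36 ± 0.0607 (limma adjusted p = 0.0026). With 97.0% unique windows, Rps3 is among the members least exposed to reads from copies. Others called were Rps2, Rps7, Rps16, Rps18, Rps19, Rps20 and Rps26, with log2 fold changes of -0.27 to -0.46. In Rps2 and Rps7 the genotypes overlapped.

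**Figure D3:**
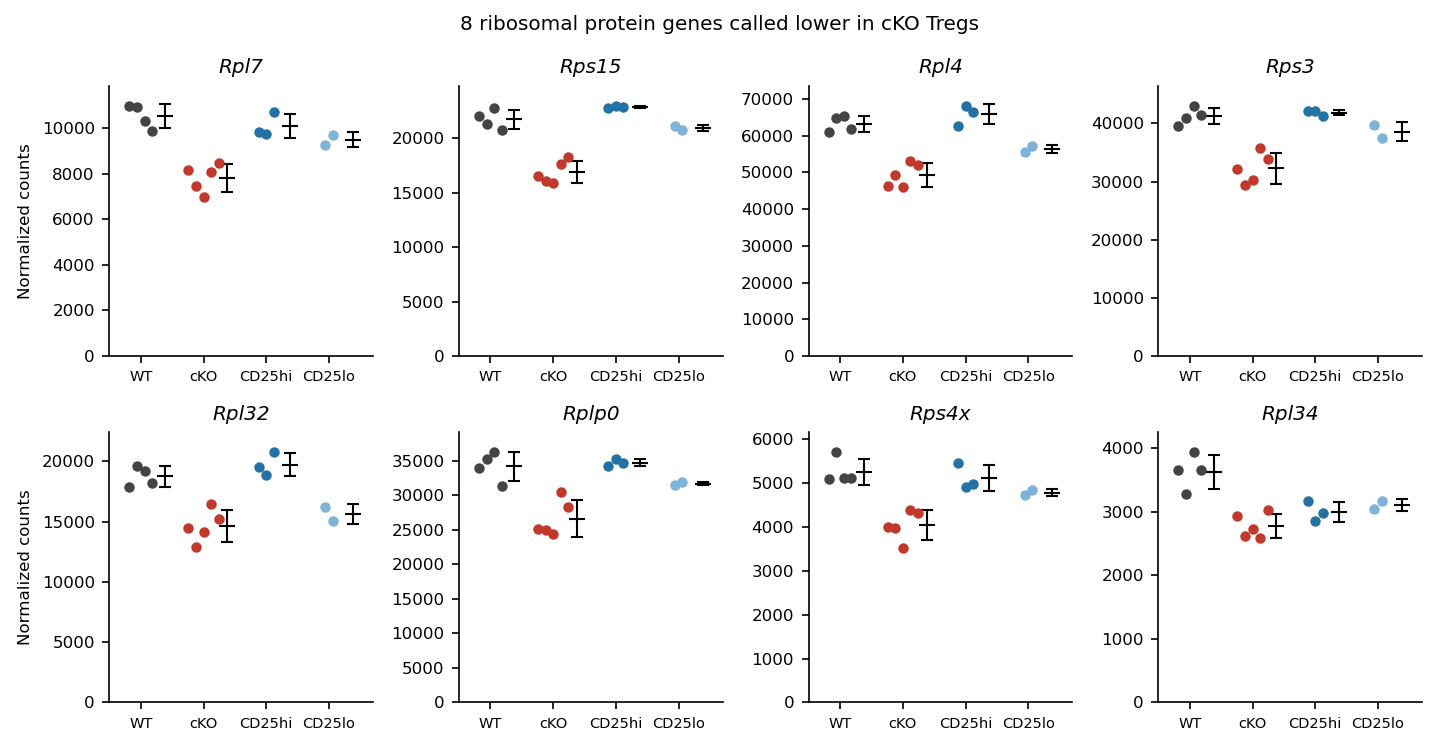
Normalized counts (y axes, from 0) of the 8 members with the smallest adjusted p in cKO versus WT, in every library (points) of each group (x axes), with mean ± SD beside them. In each panel all 5 cKO libraries lie below all 4 WT libraries. The CD25lo libraries lie below the CD25hi libraries in all panels except Rpl34.

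Of the 3 stalk proteins, which recruit the GTPases that drive elongation, 1 was lower and the other two were not called. Rplp0, the base of the stalk, had 25194, 24914, 24353, 30519 and 28268 normalized counts in cKO and 34013, 35241, 36217 and 31403 in WT libraries. It was lower without overlap (log2 fold change -0.36 ± 0.0676, limma adjusted p = 0.0048). Rplp1, one of the acidic proteins bound to it, had 7971, 8207, 8051, 9656 and 7963 normalized counts in cKO against 6738, 6496.5, 7409.7 and 6798 in WT libraries. Every cKO library was above every WT library, the opposite order to Rplp0. Its log2 fold change of 0.28 ± 0.0895 did not pass the threshold (limma adjusted p = 0.095), but passed it by DESeq2 (adjusted p = 0.0358) and by limma with only the cKO and WT libraries (adjusted p = 0.0406). With Xist status as a term it was 0.17 (limma adjusted p = 0.966). Rplp1 was the only member tested whose groups were apart in this direction. Rplp2, the partner of Rplp1, had 16279 ± 1135 against 16199 ± 593 normalized counts (SD, n = 5 and n = 4), with a log2 fold change of 0.01 ± 0.073.

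Of the 4 X-linked members 1 was called, and Xist was high in the cKO libraries. Rps4x, a 40S protein whose human counterpart escapes X inactivation, had 3997, 3987, 3509, 4386 and 4309.9 normalized counts in cKO against 5085, 5697, 5107 and 5121 in WT libraries. It was lower without overlap (log2 fold change -0.38 ± 0.0721, limma adjusted p = 0.0052). WT replicate 3, with high Xist, lay between WT replicates 1 and 4. Rpl39, a small protein of the exit tunnel, ranged from 282 to 361 in cKO and 411 to 490.4 in WT libraries, with an adjusted p of 0.339 (limma). Rpl10, which joins late in 60S maturation, and Rpl36a had log2 fold changes of -0.18 and -0.51 and overlapped between genotypes.

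All 18 members called had a mean of at least 1337 normalized counts, and of the 31 members with a mean below 1000 that were tested none was called and 21 had a negative fold change, with a median of -0.19. In those the libraries of a genotype differed more among themselves, with a median coefficient of variation of 26.2% in WT and 14.1% in cKO, compared with 8.08% and 8.40% in the 50 members above that level. Rpsa, a protein of the 40S head, had 249.0 to 332.7 normalized counts in cKO and 339.5 to 461.9 in WT libraries, and its log2 fold change of -0.55 ± 0.308 was not called (limma adjusted p = 0.402). Rps6, the substrate of S6 kinase, had 304 ± 55.4 and 311 ± 81.2 (SD, n = 5 and n = 4), and Rps27a, which is made as a fusion to ubiquitin, 393 ± 55.3 and 477 ± 71.8. Their log2 fold changes of -0.02 and -0.28 did not pass the test.

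**Figure D4:**
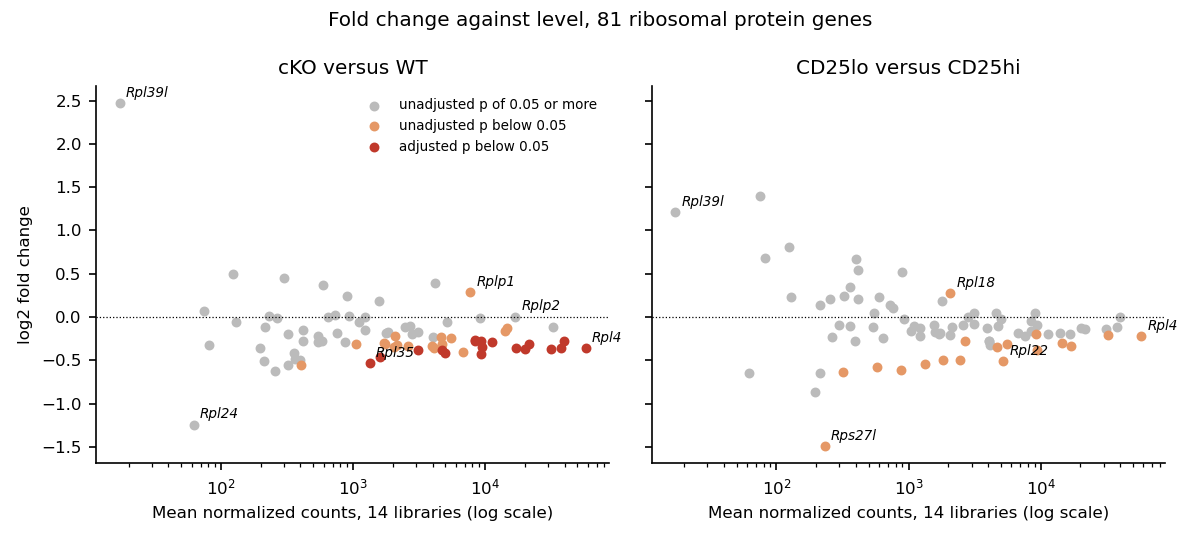
Log2 fold change (y axis) of the 81 ribosomal protein genes tested against their mean level over the 14 libraries (x axis, normalized counts, log scale) in both comparisons. Colours give the limma test, and called genes (red) appear in cKO versus WT alone, all at means of at least 1337. Spread grows toward low levels, and Rplp1 stands above 0 among the abundant members.

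Levels differed widely between genes whose products are needed in equal numbers. The 5 members with the most counts took 41.4% of all counts of ribosomal protein genes, and the first 20 took 79.7%. Per kilobase of all annotated exons, Rps15, Rpl8 and Rpl4 stood at 31984, 29200.4 and 28820.3 normalized counts per kb. This order depends on the length used. Per kilobase of 1 transcript, a choice made after seeing the data, Rpl8 had 46631 and Rps9 43280.3, above Rpl4 at 37609 and Rps15 at 35227. Rps10, Rpl24 and Rpl23a stood lowest per kilobase of exons of the members that are not paralogs, at 53.5, 60.3 and 88.5, and had 237, 91.8 and 133.9 per kilobase of transcript. Rpl24 had 26.0 to 44.5 normalized counts in cKO and 149.9, 134.3, 99.6 and 19.5 in WT libraries, and its log2 fold change of -1.24 ± 0.659 was not called (limma adjusted p = 0.372), while DESeq2 called it (adjusted p = 0.0388). Many of these genes have processed pseudogenes with nearly the same sequence, and a 50-base read from such a stretch matches several places. The share of 50-base windows found in no other annotated gene was 1.35% for Rps27, 14.3% for Rpl23a, 18.3% for Rpl24 and 21.8% for Rps10. It was 83.5% for Rpl4 and 92.1% for Rpl8, with a median of 42.6% over the members tested. How reads with several matches were counted is not given in the sources used here, so levels of members with few unique windows are uncertain. Of the 40 members tested above the median of unique windows 13 were lower in cKO Tregs, and of the 41 at or below it 5, with median log2 fold changes of -0.28 and -0.24.

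**Figure D5:**
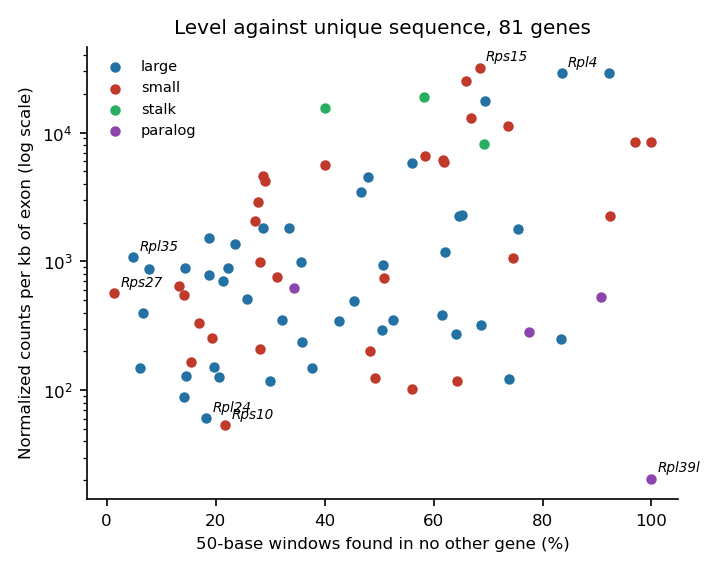
Mean level per kilobase of exon (y axis, normalized counts per kb, log scale) against the percent of 50-base windows of the transcript found in no other annotated gene (x axis) for the 81 detected members, coloured by subunit. Rpl4 and Rps15 lie at the top right, Rpl24 and Rps10 at the lower left, and Rpl39l at the lower right, at 20.6 per kb.

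None of the 4 paralogs tested was called in cKO Tregs. Rpl3l, a heart and skeletal muscle form of Rpl3, and Rpl10l, a testis form of Rpl10, had no read in any of the 14 libraries, which allows up to 3 reads in each (counting error only). Rpl39l, a male germ cell form of Rpl39, had 18.9, 25.1, 1.0, 39.0 and 26.2 normalized counts in cKO and 9.40, 0, 6.10 and 0 in WT libraries, and its groups overlapped. Rpl7l1, the paralog of Rpl7, had 1685 ± 126 in cKO and 1901 ± 204 in WT libraries (SD, n = 5 and n = 4), and its log2 fold change of -0.17 was not called (limma adjusted p = 0.455). Rpl22l1 had 1294 ± 47.7 and 1305 ± 217, and its parent Rpl22, a protein with a known role in lymphocyte development, 5030 ± 503 and 5301 ± 1106, neither of which passed the test. Rps27l, a target of p53, was at 202 ± 36.7 and 212 ± 82.8. Rpl3 itself had a log2 fold change of -0.20 (limma adjusted p = 0.397), and Rps27 of 0.38 ± 0.325 (adjusted p = 0.632).

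CD25lo against CD25hi Tregs asked whether the sorted bins differed in the same genes. By limma 0 members were called lower and 0 higher, while 1.01% of all genes tested were lower and 0.61% higher. At an unadjusted p below 0.05, 17 members were lower and 1 higher, a count not taken over all genes. DESeq2 called 9 members lower and 0 higher, against 496 and 309 of 23665 genes. By edgeR 0 members were called, against 144 lower and 79 higher of 16241 genes. The 2 CD25lo libraries were below all 3 CD25hi libraries for 29 members and above them for 6, against 11.6% and 12.9% of all genes. The median log2 fold change was -0.13 over the members and 0.00 over all genes tested. Of the 81 members 59 were negative, against 7790 of all 16241 genes. The T cell and Treg markers, which include the sort gene Il2ra, summed to 142282 to 142519 in CD25lo and 179057 to 188736 in CD25hi libraries. Of these markers Cd3e overlapped between the bins, and Cd4 was higher in CD25lo without overlap. Foxp3, Ikzf2, Tnfrsf18 and Ctla4 were lower in CD25lo without overlap, as was Il2ra. Foxp3 was at 16298 and 14546 in CD25lo and 21788 to 24370 in CD25hi libraries. The summed 12 myeloid markers did not overlap between the bins either, at 2669.5 to 2973 in CD25lo and 1707 to 2453 in CD25hi libraries. Of them Ccr2 (854.7 and 950.7 in CD25lo, 440.0 to 570.4 in CD25hi), Cd68 and Tyrobp were apart, all higher in CD25lo. The others overlapped or had no read. Cd14 and S100a8 were at 0 in every library of both bins, S100a9 in CD25hi alone and Itgam in CD25lo alone. The B cell genes overlapped, at 197 to 299 and 248 to 339. The part of these markers in the sorted comparison was not tested.

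Rpl32 and Rps26 had the smallest adjusted p in the sorted bins. Rpl32 had 16249 and 15060.2 normalized counts in CD25lo and 19571, 18884 and 20740.4 in CD25hi libraries. The bins were apart, and the log2 fold change of -0.33 ± 0.0901 had an adjusted p of 0.0742 (limma). Rps26, a protein at the mRNA exit of the 40S subunit, had 8151.5 and 8440.4 in CD25lo and 11071, 10533 and 10731 in CD25hi libraries (log2 fold change -0.38 ± 0.102, limma adjusted p = 0.0745). By DESeq2 both passed the threshold, with adjusted p of 0.0092 for Rpl32 and 0.0148 for Rps26. Rpl22 had 4299.9 and 4078 against 5857, 5875 and 6154.5 and Rpl7l1 1734 and 1371 against 1876, 2258 and 2402. Both were apart, with log2 fold changes of -0.51 and -0.49 and adjusted p of 0.099 and 0.0956 by limma and 0.0326 and 0.0327 by DESeq2. Neither had been called between the genotypes. Rps27l had 94.6 and 179.6 in CD25lo and 293.7, 461.4 and 369.2 in CD25hi libraries. Its log2 fold change of -1.49 ± 0.458 was the most negative of the members in this comparison, with an adjusted p of 0.116 by limma and 0.0216 by DESeq2.

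The 18 members lower in cKO Tregs had a median log2 fold change of -0.13 in the sorted bins, and 17 of them were negative. For Rpl4 the log2 fold change was -0.36 between genotypes and -0.22 between bins, for Rps15 -0.36 and -0.13, for Rpl7 -0.43 and -0.09, for Rpl8 -0.28 and 0.00 and for Rpl34 -0.39 and 0.05. The comparisons share no control libraries, but they share the fit and its spread, and a difference between them was not tested. Unadjusted p was below 0.05 in both for 8 members, a count not taken over all genes.

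Genes that work with these proteins were examined next. Of 54 other translation genes, 6 were lower and 1 higher in cKO Tregs, against 1.48% and 2.04% of all genes tested. Their median log2 fold change was -0.08. Rack1, a protein of the 40S subunit outside the naming rule, fell by 0.35 on the log2 scale (limma adjusted p = 0.0042). Larp1, the protein that binds TOP mRNAs, fell by 0.31, and Eef1d, a subunit of the exchange factor for eEF1A, by 0.30 (limma adjusted p = 0.0044 and 0.0064). Eif4g1, the scaffold of the cap-binding complex, rose by 0.35 (limma adjusted p = 0.001). In CD25lo Tregs 4 of the 54 were lower and 0 higher, against 1.01% and 0.61% of all genes tested. The 4 were Eif5a (-0.55), Larp1 (-0.40), Eef2k, the kinase that slows elongation (-1.25), and Eif3b (-0.38), with limma adjusted p from 0.0032 to 0.024. Of the 78 mitochondrial ribosomal proteins, which build the separate ribosome of mitochondria, 0 were called in cKO Tregs (median log2 fold change -0.05) and 1 was lower in CD25lo Tregs (median -0.13).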

How the data were processed

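RNA-seq of 14 libraries of sorted mouse Tregs was analysed, grouped by the labels. Reads of 50 bases were placed on GRCm38 by the authors (STAR 2.7.2b). The deposited signal of a gene is its count over the size factor of the library from DESeq2 1.24.0, rounded to 0.1. The settings of the read counting are not given in the sources used here. The deposited table lists 55536 genes, 7173 of them without values, and also holds stabilized values and the comparisons of the authors (fold changes, p-values), which were not used.

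Members, gene lists and tests were chosen with earlier results of these data known. Log2(normalized count + 1) was fitted with 4 group means over all 14 libraries by limma-trend (R 4.3.3, limma 3.58.1), for the 16241 genes that reached 10 normalized counts in 2 or more libraries, and Benjamini-Hochberg adjusted p below 0.05 was a call. Whole reads recovered from the size factors (within 0.055 normalized counts) were used with edgeR 4.0.16, DESeq2 1.42.0 and limma-voom as alternatives, beside other scalings, filters, pseudocounts, covariates and left-out libraries. The limma-trend test of cKO against WT was run on simulated counts, with planted changes larger than those of the members called. The count tests and sequence searches were not tested in this way. Rps4l, a pseudogene in the table, was no member. Genes named were members only: up to 8 called per direction and comparison, paralogs and parents, stalk and X-linked members, Rpsa, Rps6 and Rps27a, the extremes per kb, and up to 4 called other translation genes. Named outside it, after their values were seen, were Rpl35, Rps26, Rps9, Rps3a1 and other called members, and 1 named member is not reported here. Labels number the libraries within a group, and the numbers did not pair them (correlations of deviations -0.32 to 0.02). No 2 libraries of a group agreed within counting noise. Replicates are separate samples, and the sources used here do not tie each to 1 mouse. Depth, 30055573 to 35226685 reads in genes, limits members with few reads.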

Additional observations from a re-analysis of the deposited data

Results flagged for a closer look

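Among the named members and the share of counts, 58 sets of 4 or 5 libraries were examined for a library far from the others of its group, and 5 were marked. Chance alone marks about 1 set in 20. Rplp1 reached 9656 normalized counts in cKO replicate 4, with the other cKO libraries at 7963 to 8207. Rps4x reached 5697 in WT replicate 2, with the other WT libraries at 5085 to 5121. Rps27 was at 184.0 in WT replicate 4, with the others at 704 to 785. Rps27l was at 137.6 in cKO replicate 2, with the others at 207.0 to 226.8. Rpl36a reached 238.5 in cKO replicate 3, with the others at 163 to 183.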

How the results depend on the processing

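In cKO versus WT, 14 to 25 members were called under 11 of the 13 alternatives of test, scaling, filter, pseudocount or covariate. Over all genes these 11 called 179 to 512 lower and 253 to 537 higher, of 11121 to 23665 tested. The calls were lost with Xist status as a term, as given above, and the median log2 fold change over the members was -0.30. The replicate block gave 3 (Rpl7, Rps15 and Rps26), against 34 genes lower and 51 higher of 16241. Between the sorted bins the block called 0 members, against 14 genes lower and 3 higher. The numbers did not pair the libraries, and no cKO library correlated best with the WT library of its own number. Leaving out 1 library at a time gave 11 to 22, with the lowest count without WT replicate 3. Over all genes those fits called 147 to 274 lower and 202 to 403 higher, of 16003 to 16160 tested. In CD25lo versus CD25hi 0 members were called, and the calls under the alternatives were all lower. Genes lower and higher among all tested follow in brackets. Limma-voom gave 3 members (128 and 111 of 16241) and DESeq2 9 (496 and 309 of 23665). Equal library totals gave 2 (188 and 91 of 16166) and the sorted libraries alone 3 (94 and 66 of 13988). The immediate early level as a term gave 2 (256 and 184 of 16241). Leaving out 1 library that was not CD25lo gave 0 to 2 (81 to 229 and 61 to 148). Where 1 CD25lo library was left, it was assumed to vary like the other groups. The cause of these differences in counts was not tested.

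The median over the members stayed at -0.22 to -0.29 in cKO Tregs and -0.11 to -0.15 in CD25lo Tregs with 1 library left out, and moved by less than the spread between libraries under every alternative. The difference in share between CD25lo and CD25hi was -0.196 percentage points and -0.165 without Rpl4. The log2 fold change of Rps27 in cKO Tregs turned from 0.38 to -0.18 with Xist status as a term, and lay between -0.13 and 0.56 with 1 library left out, negative without WT replicate 4. That of Rpl22l1 in CD25lo Tregs, -0.22, became 0.095 without CD25lo replicate 2 and -0.53 without CD25lo replicate 1. Of 755 values of named members in cKO versus WT 18 lost the call, 4 gained it and 38 changed sign. Of 727 in the sorted bins 15 gained it and 14 changed sign. Members with few unique windows or low levels are the least certain.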

Other observations

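Rps3a1, chosen after its values were seen, fell into levels that did not follow the groups. It had 4559 to 5505 normalized counts in the 5 cKO libraries, 4550.5 in WT replicate 2, 5651 in WT replicate 3 and 5418 in CD25hi replicate 2. The other 6 libraries held 2443 to 3366. Its log2 fold change in cKO Tregs was 0.39 ± 0.194 (limma adjusted p = 0.338), and 29.0% of its 50-base windows occur in no other annotated gene.

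Some libraries held the extreme values of many members. Among the 81 detected members CD25hi replicate 2 was the highest of the 14 libraries for 24 and the lowest for 8, and WT replicate 2 the highest for 16 and the lowest for 6. These were the libraries with the fewest genes with a read. A cKO library was the lowest for 41 members and the highest for 2.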
